A study of Rattus with 6 samples.

Results

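The AP-1 and early growth response factors described here are 10 transcription factor genes: Fos, Fosb, Fosl1, Fosl2, Jun, Junb, Jund, Maff, Egr1 and Egr2. They were chosen by gene symbol from a deposited table of read counts, in which all 10 were found among 30211 genes. The counts came from rat bone marrow mesenchymal stem cells (BMSC), stromal cells able to become bone, cartilage or fat, with the genotype given as WT. There were 3 libraries from cells kept for 4 days with 100 uM dexamethasone, a synthetic glucocorticoid, and 3 control libraries from cells kept for 4 days without it. Whether the controls received vehicle, the age and number of the animals, and whether replicates were separate cultures are not given in the labels, so p-values measure the spread between these samples alone, and that spread may be technical. The treatment tag reads DEX for all 6 samples, and the groups were taken from the sample titles.

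AP-1 is a dimer of basic leucine zipper proteins. Jun proteins can pair with each other or with Fos proteins, Fos proteins need a Jun-type partner, and the mix of subunits sets how strongly the dimer activates its targets. Many of these genes are immediate early genes, switched on briefly by growth factors, cytokines and stress through MAP kinases and the serum response factor. Egr1 and Egr2 are zinc finger factors of the same early response, and Maff is a small Maf protein, a leucine zipper factor that lacks an activation domain. The ligand-bound glucocorticoid receptor is known to interfere with AP-1 in many cell types.

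Library totals were 34835072 to 41676315 counts with dexamethasone and 39156705 to 40291671 in controls. Of 8 marrow stroma markers in the table, 3 rose, 4 fell and Thy1 did not pass (calls as defined below), where 32.3% and 31.7% of all genes tested rose and fell. The list summed to 4680 to 4790 CPM with dexamethasone against 4310 to 4410 CPM in controls (CPM, counts per 1000000 of a library size adjusted by TMM). That sum hides opposite changes. Vim rose from a mean of 1112 CPM in controls to 2732 CPM with dexamethasone. Prrx1 fell from 726.7 to 75.6 CPM and Pdgfrb from 616.0 to 137.2 CPM. Of 8 macrophage markers 5 were tested. Cd53 and Cd68 fell, by 10.8-fold and 2.38-fold, where 31.7% of all genes tested fell, and the other tested markers did not pass. Both were scarce, Cd53 with 15 counts in total with dexamethasone and 165 in controls, and Cd68 with 60 and 143. Itgam, which was not tested, had 2 counts with dexamethasone and 27 in controls. Adgre1 and Cd163 had no count in any library. The list summed to 8.73 to 9.31 CPM with dexamethasone against 10.5 to 11.9 CPM in controls. Most of that sum was Cd14, which did not pass, with means of 7.6 CPM with dexamethasone and 7.3 CPM in controls. The sums with dexamethasone and in controls stayed at or below 1.72 and 1.09 CPM for endothelial, 0.454 and 0.0519 CPM for granulocyte, 0.148 and 0.101 CPM for lymphocyte, and 0.172 and 0.456 CPM for erythroid markers. The part of other cells in the results was not tested. In such bulk libraries, fewer cells of a type and less RNA per cell cannot be told apart.

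Of the 10 genes, 6 fell with dexamethasone, 1 rose and 3 did not pass. Jun, Fosl2, Egr2, Junb, Fosl1 and Maff were lower, by 3.37-fold for Jun and by 1.42-fold for Maff at the ends of that range. Jund was the gene that rose, by 1.48-fold, and Fos, Fosb and Egr1 did not pass. Calls were made where the p of edgeR's quasi-likelihood test, adjusted by Benjamini-Hochberg over the 14111 genes tested, was below 0.05. By the same rule 31.7% of all genes tested fell and 32.3% rose, 64.0% in all. The median log2 fold change was -0.64 over the 10 genes and -0.00 over all genes tested, and the median size of change was 0.68 against 0.31. Values did not overlap between groups for 7 of the 10 genes, where 66.9% of all genes tested did not overlap. Dexamethasone was below control for 6 of these 7 (33.1% of all genes tested) and above it for 1 (33.8%). Against a null of a 1.5-fold change, 4 of the 10 genes fell (Jun, Fosl2, Fosl1 and Junb), where 9.06% of all genes tested fell. With the biological coefficient of variation, the spread between replicates beyond counting noise, set to 0.2 for every gene, 5 fell (those 4 and Egr2), where 12.0% of all genes tested fell and 26.2% were called either way.

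**Figure D1:**
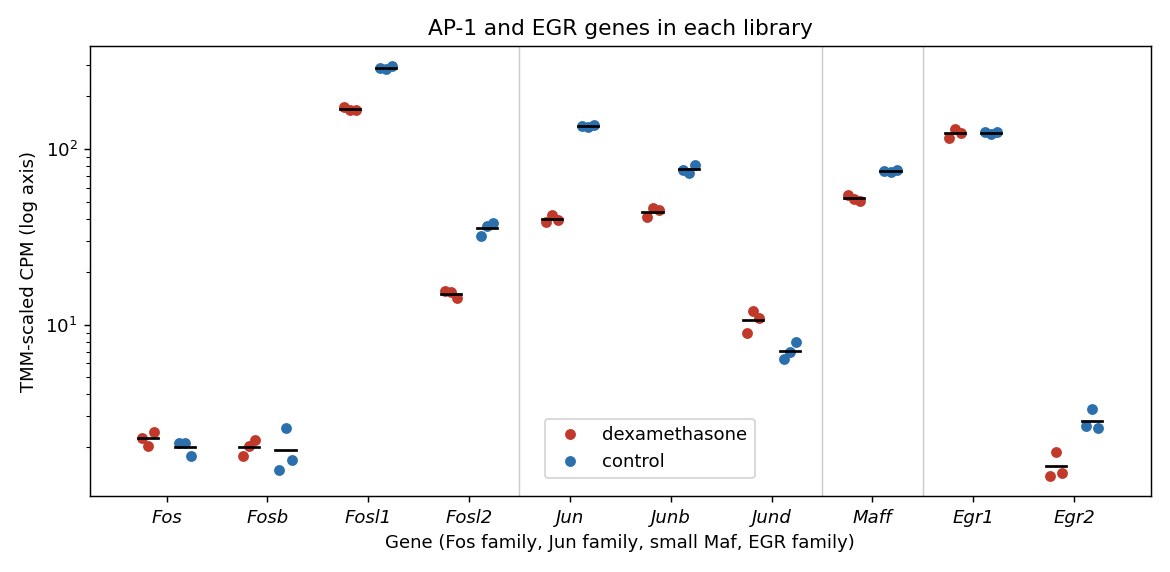
TMM-scaled CPM on a log axis for the 10 genes, ordered as Fos family, Jun family, small Maf and EGR family. Each point is a library, with dexamethasone left of control, and the black line is the mean of 3 libraries. Points of the groups are apart for 7 genes and overlap for Fos, Fosb and Egr1.

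**Figure D2:**
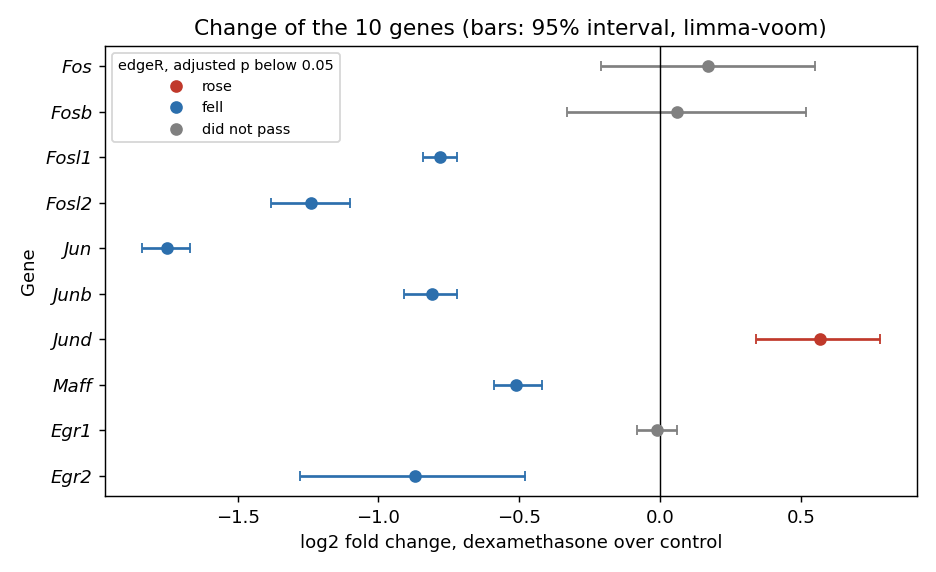
Log2 fold change of dexamethasone over control for the 10 genes (points, edgeR) with 95% intervals from limma-voom (bars). Jun lies furthest to the left at -1.75, Jund is the gene to the right of 0 that passed, and the interval of Egr1 runs from -0.08 to 0.06.

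Among the Fos family, the classic immediate early members were scarce and the Fos-related antigens were the main transcripts. Fosl1, which encodes Fra-1 (chromosome 1, 220826560 to 220835066, plus strand, 4 exons), had 174.7, 166.1 and 166.9 CPM with dexamethasone against 290.4, 287.6 and 296.1 CPM in controls. All 3 dexamethasone libraries were below all 3 controls, and the gap was many times the spread within a group. Fosl1 fell by 0.78 on the log2 scale (SE 0.026, edgeR, Benjamini-Hochberg adjusted p = 2.1e-26).

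Fosl2, which encodes Fra-2 (chromosome 6, 25598936 to 25616995, minus strand), had 15.59, 15.23 and 14.19 CPM with dexamethasone against 32.15, 36.34 and 38.01 CPM in controls. The groups were apart, and the controls spread more widely than the dexamethasone libraries. Its log2 fold change was -1.24 ± 0.083 (SE, edgeR, Benjamini-Hochberg adjusted p = 3.2e-21). The gene model of Fosl2 in the table is in 16 pieces, 13 of the gaps between them being at most 3 bases long, and its exon length is 744 bases, a multiple of 3, so reads from untranslated parts of the transcript may not be counted.

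Fos, the cellular counterpart of a retroviral oncogene and a classic partner of Jun (chromosome 6, 109300433 to 109303299, plus strand, 4 exons), had 2.25, 2.04 and 2.44 CPM with dexamethasone against 2.13, 2.10 and 1.77 CPM in controls. The values overlapped, and the log2 fold change of 0.17 ± 0.11 (SE) did not pass (edgeR, Benjamini-Hochberg adjusted p = 0.44). Its 95% interval ran from -0.21 to 0.55 (limma-voom), on 266 counts with dexamethasone and 236 in controls.

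Fosb, a close relative of Fos that also gives a truncated splice form (chromosome 1, 80214494 to 80221710, minus strand), had 1.78, 2.04 and 2.19 CPM with dexamethasone against 1.48, 2.58 and 1.70 CPM in controls. Control replicate 2 stood above every other library, and the other controls lay at or below the dexamethasone values. The log2 fold change of 0.06 ± 0.25 (SE) did not pass (edgeR, Benjamini-Hochberg adjusted p = 0.82), with a 95% interval of -0.33 to 0.52 (limma-voom), and the sign turned without dexamethasone replicate 3 (-0.01), control replicate 1 (-0.098) or control replicate 3 (-0.025). Without control replicate 2 it was 0.33 and still did not pass (adjusted p = 0.22).

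The Jun family moved both ways. Jun, which encodes c-Jun, a subunit that can bind DNA as a homodimer (chromosome 5, 114011189 to 114014277, minus strand, a single exon), had 38.7, 42.3 and 39.2 CPM with dexamethasone against 135.3, 132.9 and 136.5 CPM in controls. Every dexamethasone library was far below every control. Jun had a log2 fold change of -1.75 ± 0.041 (SE, edgeR, Benjamini-Hochberg adjusted p = 1.5e-35), and 492 of the 14111 genes tested had a lower log2 fold change.

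Junb, which encodes a Jun protein that activates less strongly than c-Jun at many AP-1 sites (chromosome 19, 26092974 to 26094756, minus strand, a single exon), had 41.0, 46.1 and 44.7 CPM with dexamethasone against 76.0, 73.4 and 81.1 CPM in controls. The groups were apart, with a log2 fold change of -0.81 ± 0.066 (SE, edgeR, Benjamini-Hochberg adjusted p = 2.5e-19).

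Jund, which encodes a Jun protein known for being made in resting cells (chromosome 16, 20485029 to 20486707, minus strand, a single exon), had 8.96, 11.9 and 10.8 CPM with dexamethasone against 6.33, 6.99 and 7.95 CPM in controls. The lowest dexamethasone library stood just above the highest control. Jund had a log2 fold change of 0.57 ± 0.15 (SE, edgeR, Benjamini-Hochberg adjusted p = 9.2e-06). Jund was no longer called at a coefficient of variation of 0.2 (adjusted p = 0.067) or against a 1.5-fold change (adjusted p = 0.97).

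Maff, which encodes the small Maf protein MafF, a partner of Nrf-type factors and a repressor when paired with itself (chromosome 7, 120580743 to 120592095, plus strand, 3 exons), had 55.1, 51.9 and 50.8 CPM with dexamethasone against 74.8, 73.7 and 75.8 CPM in controls. The groups were apart and tight. Maff had a log2 fold change of -0.51 ± 0.037 (SE, edgeR, Benjamini-Hochberg adjusted p = 7.4e-15). It was no longer called at a coefficient of variation of 0.2 (adjusted p = 0.11) or against a 1.5-fold change (adjusted p = 1).

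The EGR genes differed in level and in change. Egr1, which encodes a zinc finger factor induced by serum and mechanical load (chromosome 18, 27657628 to 27661429, plus strand, 2 exons), had 116.2, 130.3 and 123.6 CPM with dexamethasone against 124.7, 122.3 and 124.7 CPM in controls. The dexamethasone libraries lay on both sides of the controls. The log2 fold change of -0.01 ± 0.048 (SE) did not pass (edgeR, Benjamini-Hochberg adjusted p = 0.87), and the 95% interval of -0.08 to 0.06 (limma-voom) lay well inside the range of a 1.5-fold change.

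Egr2, also called Krox20, best known from myelinating Schwann cells and hindbrain (chromosome 20, 22454463 to 22459025, minus strand, 2 exons), had 1.37, 1.87 and 1.43 CPM with dexamethasone against 2.65, 3.29 and 2.57 CPM in controls. All dexamethasone libraries were below all controls, at 182 counts in total against 335. Egr2 had a log2 fold change of -0.87 ± 0.18 (SE, edgeR, Benjamini-Hochberg adjusted p = 9.6e-05), and it was not called against a 1.5-fold change (adjusted p = 0.097).

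Levels of different genes were compared as TMM-scaled CPM per kilobase of exon, with lengths as the table gives them. With dexamethasone the order from high to low was Fosl1 (102 ± 2.87), Egr1 (39.4 ± 2.25), Maff (27.1 ± 1.13), Junb (24.6 ± 1.48), Fosl2 (20.2 ± 0.978), Jun (13.0 ± 0.626), Jund (6.29 ± 0.891), Fos (1.41 ± 0.125), Fosb (0.536 ± 0.0562) and Egr2 (0.482 ± 0.0844) CPM per kilobase (SD, n = 3). Only Fosb and Egr2 among neighbours in that order overlapped between libraries. In controls the order was Fosl1 (175 ± 2.59), Fosl2 (47.7 ± 4.05), Jun (43.7 ± 0.606), Junb (43.1 ± 2.21), Egr1 (39.6 ± 0.441), Maff (38.5 ± 0.561), Jund (4.22 ± 0.485), Fos (1.26 ± 0.124), Egr2 (0.878 ± 0.123) and Fosb (0.513 ± 0.157) CPM per kilobase. There Fosl2 overlapped Jun, Jun overlapped Junb, and Egr1 overlapped Maff. Fosl1 was above 93.9% of the genes tested with dexamethasone and above 96.6% in controls, while Jun was above 64.0% with dexamethasone and above 85.9% in controls. By means, Jun came after Fosl1, Egr1, Maff, Junb and Fosl2 with dexamethasone, against Fosl1 and Fosl2 alone in controls. Its place in controls relative to Fosl2 and Junb is not settled, since their libraries overlapped, and the length of Fosl2 is uncertain.

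The make-up of each family was followed as the share of each gene in the summed CPM per kilobase of its family, a value that does not depend on how libraries are scaled to each other. Jun made up 30.7%, 29.3% and 28.7% of the Jun family in the dexamethasone libraries, against 48.6%, 48.7% and 46.8% in controls, a difference of -18.5 percentage points. Junb made up 56.3%, 55.4% and 56.7% with dexamethasone against 47.3%, 46.6% and 48.2% in controls. Jund made up 13.1%, 15.2% and 14.6% with dexamethasone against 4.18%, 4.72% and 5.01% in controls. In controls Jun and Junb transcripts stood about level, and with dexamethasone Junb was the largest part in every library. Junb itself fell by 1.75-fold in CPM, less than the 3.37-fold fall of Jun, so its larger share was not a rise in level. Jund rose by 1.48-fold in CPM, a call that was lost at a coefficient of variation of 0.2.

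Fosl1 made up most of the Fos family in every library, with 82.1%, 81.7% and 82.6% in the dexamethasone libraries against 79.5%, 77.3% and 77.2% in controls. Fosl2 made up 16.4%, 16.8% and 15.7% with dexamethasone against 19.7%, 21.8% and 22.1% in controls. With Fosl2 left out, an alternative added after its gene model was seen, the share of Fosl1 moved the other way, by -0.876 percentage points. Fos and Fosb together were a small part in both groups. The share of Fos was 1.14% ± 0.109 with dexamethasone and 0.562% ± 0.0678 in controls (SD, n = 3), while its own CPM did not pass. The groups did not overlap for any of the 7 shares, where 66.9% of all genes tested did not overlap in CPM. Shares of a family add up to the whole, so the 7 are not independent, and a lower share for some genes raises the others. Each gave p = 0.1 in a two-sided exact permutation test over libraries, which is the smallest p that 3 against 3 libraries allow. Benjamini-Hochberg adjustment over the 7 left each at 0.1.

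**Figure D3:**
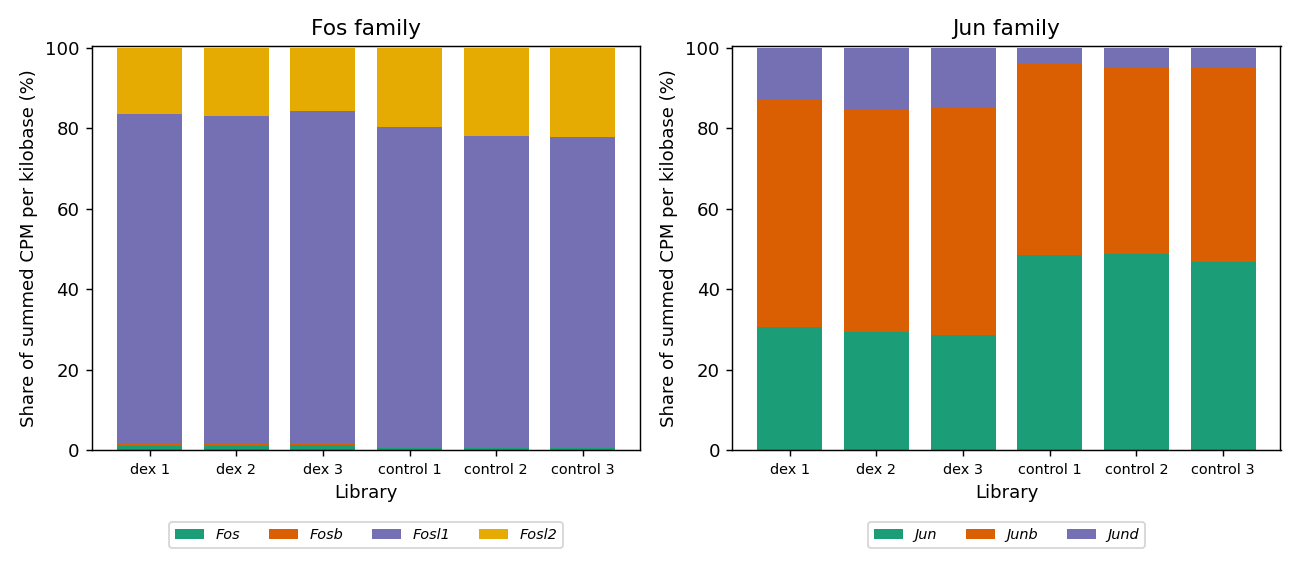
Share (%) of each gene in the summed CPM per kilobase of the Fos family (left) and the Jun family (right), with a bar for each library and dexamethasone libraries left of controls. The Jun part is 28.7% to 30.7% with dexamethasone and 46.8% to 48.7% in controls, and Fosl1 fills most of every Fos family bar.

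Both families were lower in sum. The Fos family summed to 128, 122 and 122 CPM per kilobase with dexamethasone against 220, 224 and 231 in controls, and the dexamethasone mean was 55.1% of the control mean. The Jun family summed to 40.8, 46.6 and 44.2 CPM per kilobase with dexamethasone against 90.2, 88.3 and 94.4 in controls, a mean of 48.3% of the control mean. Neither sum overlapped between groups, and p was 0.1 for both (two-sided exact permutation test, the smallest possible). The ratio of the Fos sum to the Jun sum was 3.13, 2.62 and 2.75 with dexamethasone and 2.43, 2.53 and 2.44 in controls. The Fos sum was the larger in all 6 libraries, as far as the gene models allow levels to be compared.

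Other leucine zipper genes that can pair with AP-1 subunits or bind related sites were mostly lower. The list was chosen with earlier results of these data known, so it is not independent evidence of direction. Of 14 listed 11 were tested: 8 fell, 2 rose and Atf7 did not pass (median log2 fold change -0.31), where 31.7% of all genes tested fell and 32.3% rose. At a coefficient of variation of 0.2, 5 fell and 1 rose, where 12.0% and 14.1% of all genes tested did. Atf3, a stress-induced factor that pairs with Jun proteins, had 8.60, 9.22 and 8.72 CPM with dexamethasone against 61.97, 65.3 and 57.5 CPM in controls, a log2 fold change of -2.80 ± 0.061 (SE, edgeR, Benjamini-Hochberg adjusted p = 1.1e-35). Jdp2, a Jun dimerisation protein that represses AP-1, averaged 71.8 ± 0.812 CPM with dexamethasone and 110.3 ± 2.48 CPM in controls, a log2 fold change of -0.62. Mafk, a small Maf protein like Maff, averaged 67.5 ± 2.71 CPM with dexamethasone and 109.5 ± 5.09 CPM in controls, a log2 fold change of -0.70. Those that rose, named with their values in view, were Batf3, which pairs with Jun proteins, and Maf (log2 1.21 and 0.47).

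Egr3, another gene of the EGR family, rose while Egr2 fell. It had 1.44, 1.16 and 1.23 CPM with dexamethasone against 0.441, 0.355 and 0.300 CPM in controls, all dexamethasone libraries being above all controls. The log2 fold change was 1.81 ± 0.17 (SE, edgeR, Benjamini-Hochberg adjusted p = 3.8e-06), on 152 counts with dexamethasone and 43 in controls. Egr4 had no count in any of the 6 libraries, so its level could be as high as 0.17 CPM in the shallowest (a floor of 6 counts, counting error only). Nab1 and Nab2, corepressors that bind EGR proteins, were lower by little (log2 -0.34 and -0.10). Neither was called at a coefficient of variation of 0.2 (adjusted p = 0.35 and 0.84), and Nab2 also did not pass when scaled by library size alone (adjusted p = 0.076).

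The genes that switch on Fos and Egr1 at the promoter showed small differences. Of 5 tested members of the SRF and ternary complex factors, 2 rose and 3 fell, with log2 fold changes between -0.45 and 0.18, where 32.3% and 31.7% of all genes tested rose and fell. Mrtfa, a coactivator of SRF, and Elk4, a ternary complex factor, fell (log2 -0.45 and -0.22), and Elk3, another such factor, rose (log2 0.18). None of the 3 was called at a coefficient of variation of 0.2 (adjusted p = 0.17, 0.59 and 0.69), and leaving out control replicate 1 left 1 rise in the list. Of 15 MAP kinase genes 14 were tested: 7 rose, 4 fell and 3 did not pass (median log2 fold change 0.15), against 64.0% of all genes tested called either way. At a coefficient of variation of 0.2 there were 2 rises and 2 falls, against 26.2% called, so the number called lay near the background. The largest change in the list, named with its values in view, was the rise of Map2k6 (log2 3.51). It rested on few counts, 96 with dexamethasone and 8 in controls. Map2k1, which encodes the kinase MEK1 that activates ERK, averaged 133.9 ± 3.31 CPM with dexamethasone and 237.0 ± 2.60 CPM in controls (log2 -0.82). Mapk8, which encodes JNK1, a kinase that phosphorylates c-Jun, averaged 28.6 ± 1.65 CPM with dexamethasone and 50.1 ± 1.49 CPM in controls (log2 -0.81). Mapk14, which encodes p38 alpha, averaged 71.2 ± 4.10 CPM with dexamethasone and 44.4 ± 0.938 CPM in controls (log2 0.68). Transcript levels say nothing of kinase activity.

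Other immediate early genes moved both ways, in a list that was likewise chosen with earlier results of these data known. Of 21 listed 19 were tested: 12 fell, 4 rose and 3 did not pass (median log2 fold change -0.45), where 31.7% of all genes tested fell and 32.3% rose. At a coefficient of variation of 0.2, 8 fell and 4 rose, where 12.0% and 14.1% of all genes tested did. Nr4a2, an orphan nuclear receptor, had 7.96, 6.75 and 8.25 CPM with dexamethasone against 171.0, 157.6 and 170.9 CPM in controls, a log2 fold change of -4.44 ± 0.097 (SE, edgeR, Benjamini-Hochberg adjusted p = 1.5e-40). Nr4a1, its relative, and Ier3, an early response gene of survival and inflammation, averaged 12.6 ± 0.846 and 10.3 ± 0.550 CPM with dexamethasone, against 74.0 ± 4.26 and 76.9 ± 3.96 CPM in controls. Their log2 fold changes were -2.56 and -2.89. Rises, named with their values in view, were seen for Klf4, Dusp1, Zfp36 and Ccn2 (log2 1.14, 1.11, 0.84 and 0.70). Dusp1 encodes a phosphatase that switches off JNK and p38 and is a known target of the glucocorticoid receptor. It had 28.5, 31.2 and 28.0 CPM with dexamethasone against 13.2, 13.6 and 13.7 CPM in controls.

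Genes known as AP-1 targets in other cells were measured in the same libraries. Of 17 tested, 13 fell and 4 rose, where 31.7% and 32.3% of all genes tested did, and the median log2 fold change was -2.16. The list holds cytokine genes that NF-kB also drives, and it was written with falls of such genes in these data already known, so it is not independent evidence of direction. Ccl2, a monocyte chemokine, averaged 5.26 ± 0.646 CPM with dexamethasone and 562.8 ± 6.87 CPM in controls. Lif, a cytokine of the IL-6 family, averaged 8.10 ± 0.429 CPM with dexamethasone and 688.3 ± 33.6 CPM in controls. Il6 averaged 0.802 ± 0.216 CPM with dexamethasone and 121.5 ± 3.90 CPM in controls. Their log2 fold changes were -6.74, -6.41 and -7.22. The collagenase gene Mmp13, a classic AP-1 target named after its values were seen, averaged 7.38 ± 1.02 CPM with dexamethasone and 28.0 ± 1.40 CPM in controls (log2 -1.91). Of the rises, Plau, Spp1 and Ccnd1 are named with their values in view (log2 0.67, 0.45 and 0.25), of which Plau also passed at a coefficient of variation of 0.2 (adjusted p = 0.033). None of these 3 passed against a 1.5-fold change (edgeR, Benjamini-Hochberg).

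Of 7 tested genes listed as EGR targets, 6 fell and 1 rose (median log2 fold change -0.73), where 31.7% and 32.3% of all genes tested did. Of these, 5 fell with library size alone, where 4032 genes fell in all. At a coefficient of variation of 0.2, 4 fell, where 12.0% of all genes tested fell. This list too was written with earlier results of these data known, so it is not independent evidence of direction. Egr1 itself did not pass. F3, which encodes tissue factor, averaged 19.2 ± 1.56 CPM with dexamethasone and 81.7 ± 1.29 CPM in controls (log2 -2.09). Tgfb1 averaged 7.01 ± 0.721 CPM with dexamethasone and 27.7 ± 1.76 CPM in controls (log2 -1.99), and Icam1, an adhesion molecule, 56.8 ± 2.30 CPM with dexamethasone and 94.7 ± 1.38 CPM in controls (log2 -0.74). Plau, which rose, stands in both target lists, and Nab1 and Nab2 are also counted among the corepressors.

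**Figure D4:**
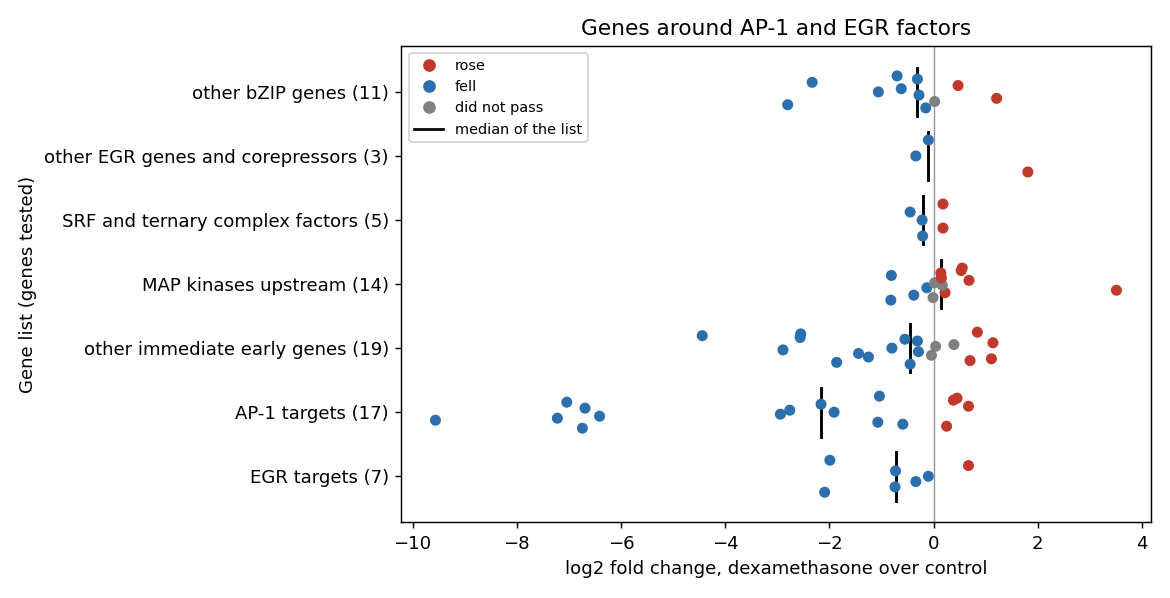
Log2 fold change of dexamethasone over control for the tested genes of 7 lists around the AP-1 and EGR factors, with the number tested in parentheses. Each point is a gene, coloured by its call, and the black line is the median of the list, which is -2.16 for the AP-1 targets and 0.15 for the MAP kinases.

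The genes whose pattern over the 6 libraries was most like that of Jun, by the root mean square difference of centred log2 CPM, were Cemip2 and Adamts12, at 0.016 and 0.03, out of 8861 candidates with a mean of at least 5 CPM. Cemip2 averaged 25.6 CPM with dexamethasone and 87.3 CPM in controls, and Adamts12 averaged 15.0 CPM with dexamethasone and 51.3 CPM in controls. For Jund, the nearest were Faim and Sh3bp5, at 0.069 and 0.073. Likeness over 6 libraries in 2 groups is mostly likeness of fold change, since 48 candidates lay within 0.1 of Jun and 12 within 0.1 of Jund.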

How the data were processed

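The deposited values were raw read counts per gene for 6 libraries in a single table, with exon positions and exon length in bases, per the file headers. The submitters' processing notes name the mouse build mm10, but the table lists rat symbols and a chromosome 20. Positions are printed as the table has them, in an unnamed rat build. For the aligner, counting program and strand setting the sources used here give nothing. For each of the 10 members the chromosome matches that in the rat gene table of assembly GRCr8, from which no position was taken, and no exon of theirs overlaps an exon of another gene in the table. Per the labels' protocols, RNA came from a Qiagen kit and libraries from a SMARTER mRNA kit.

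edgeR 4.0.16 in R 4.3.3 filtered genes (filterByExpr), scaled libraries (TMM) and ran the robust quasi-likelihood test, dexamethasone against control with no covariate and Benjamini-Hochberg adjustment. SEs come from log2 CPM with a prior count of 2, and intervals from limma-voom 3.58.1. DESeq2 1.42.0 was an alternative. Of counts from 1 to 20, 70.3% were even, against 50.6% of counts of 1000 or more, so low counts may come as read pairs. Replicates differed by more than counting noise if each count is a separate read (chi-square per gene 2.71 to 4.18). Counts that come as pairs would raise that value by themselves, so the excess may be overstated. The common biological coefficient of variation was 3.66%, and log2 CPM of libraries within a group correlated at 0.994 or above. No replicate was merged. The fit was tested on simulated data. Members, lists and tests were chosen with earlier results of these data known, so directions within the lists are not independent evidence. Named are the 10 members, the 3 called genes of smallest p per list of regulators and targets, and the 2 genes nearest in pattern to Jun and Jund. Other genes, such as list members that rose, that did not pass or that had no count, were named with their values in view. A listed gene is not reported here by name.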

Additional observations from a re-analysis of the deposited data

How the results depend on the processing

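Fits were repeated under 14 alternatives, and 6 members fell and 1 rose in each except those that assume more variation or a larger change. With the coefficient of variation set to 0.2, 5 members fell and 0 rose (1 at an unadjusted p below 0.05), and 3693 genes were called in all, 1993 up and 1700 down, against 9027 (4559 up and 4468 down). Against a 1.5-fold change, 4 members fell and 0 rose (0 unadjusted), and 2827 genes were called, 1549 up and 1278 down. DESeq2 and limma-voom each gave 6 falls and 1 rise among the members. Of the 3 members that did not pass, Fos kept a positive sign in every fit. The sign of the others turned: Fosb ranged from -0.098 to 0.33 and Egr1 from -0.043 to 0.039 on the log2 scale when each library was left out in turn, and Egr1 was 0.031 with library size alone. With no division by length, the share differences in percentage points were 0.484 for Fosb, 1.7 for Fosl1, -2.77 for Fosl2, 11.4 for Junb and 7.9 for Jund, against 0.205, 4.16, -4.94, 8.8 and 9.65 per length. With Fosl2 left out, that of Fosl1 was -0.876. Same-numbered replicates did not deviate together (r = -0.005, -0.002 and 0.005 for numbers 1 to 3). With the number as a replicate block, 8991 genes were called, and the members gave 6 falls and 1 rise. Totals of 227 to 266 counts per group limit what could be seen for Fos and Fosb.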
